A study of Mus musculus with 6 samples.

Results

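A set of 51 genes of the immediate early and NF-kB responses was followed in primary mouse embryonic fibroblasts with and without a working Ing1 gene. The 51 were chosen by name and with earlier results of these data known, with chemokines and the interleukin-6 family left out. They comprise 23 immediate early genes, 11 NF-kB subunits and inhibitors and 17 inflammatory targets, out of 18069 genes with a singly annotated probe. Of the 51, 46 had such a probe, and 39 were tested, being flagged good in every culture of 1 genotype or both. Jund, Dusp5, Nfkb1, Ptgs1 and Lcn2 had no probe annotated to them alone, and Egr3, Rel, Nfkbie, Tnf, Il1a, Il1b and Csf2 were too dim to test. Ing1-deficient cultures C4, C3 and B1 came from embryos in which a gene-trap cassette had disrupted the Ing1 locus, and wild-type cultures H2, H3 and I2 from littermates. Each of the 6 early-passage cultures was prepared from its own embryo and hybridised singly to a CodeLink mouse array. The labels name no treatment, embryonic age or strain and do not say which cultures shared a litter or a day. A level below is the deposited normalised intensity, the background-subtracted spot signal in units of the median transcript probe of that array. It compares arrays for 1 probe, never 1 probe with another.

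Immediate early genes are switched on within minutes by serum, growth factors and stress, with no need for new protein synthesis, largely through MAP kinases acting on SRF with its ternary complex partners, and through CREB. NF-kB dimers are held in the cytoplasm by IkB proteins until cytokine or Toll-like receptor signals lead to the destruction of the inhibitor, and they then activate inflammatory genes together with their own inhibitors. Fibroblasts express both programmes, and many of the mRNAs are short-lived. Ing1 is a PHD-finger subunit of Sin3 histone deacetylase complexes, and the series asked which genes respond when it is lost.

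The genotype labels, the array quality and the cell type were looked at first. Ing1 itself read 1.38, 0.93 and 1.39 in the deficient cultures against 11.7, 11.4 and 11.1 in wild type (9.40-fold lower, limma adjusted p = 0.000286). Good flags covered 55.5% to 59.0% of transcript probes on deficient arrays and 56.0% to 62.1% on wild-type arrays. All 12 fibroblast markers were read on all 6 arrays. Of 6 endothelial markers, Pecam1 and Cdh5 were read on none. Kdr had a good flag on 3 deficient and 2 wild-type arrays, Tek on 2 and 3, Emcn on 2 and 0, and Tie1 on 0 and 1. Of 4 epithelial markers with a probe, Epcam, Krt8 and Krt19 were read on all 6 arrays. No tested endothelial or epithelial marker passed. Of 17 macrophage markers, 15 had a probe. Their summed intensity was 63.4, 184 and 100.1 in C4, C3 and B1, against 69.9, 45.6 and 33.0 in H2, H3 and I2, while the pan-leukocyte marker Ptprc was above background on no array. Adgre1 had a good flag on 2 deficient arrays and 0 wild-type arrays. Of 12 tested macrophage markers 3 rose, as did 4.94% of all tested probes, and the list median was 1.08. The 3 were C1qa (2.00 ± 0.46, limma adjusted p = 0.0393), C1qb (1.85 ± 0.37, adjusted p = 0.0308) and Mrc1 (1.73 ± 0.37, adjusted p = 0.0336). Mrc1 had a good flag on 3 deficient arrays and 1 wild-type array, so it entered the test through the genotype in which it is high. The other 9 did not pass, with the smallest differences in Laptm5 (0.10 ± 0.20), Spi1 (0.16 ± 0.15) and Cd53 (0.30 ± 0.51). The wild-type culture H3 stood apart for these genes: it was the highest wild-type array in 26 of 39 tested members (66.7%), against 28.7% of the 19520 probes measured on every array. Results that rest on H3 are therefore given without it as well. In whole cultures, fewer cells of a type and less RNA per cell cannot be told apart.

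The promoters of the members that changed, other than Dusp4, which had no entry, and those of Egr2, Zfp36 and Nfkbia for their serum-response and NF-kB motifs, are shown because these elements are the input points of both programmes. RefSeq promoter windows (GRCm38.p6, 250 bases before to 50 after a start) were matched for 36 of the 46 members with a probe. The bases before the start are printed 5′ to 3′ on the strand of the gene, with motif matches in capitals.
Ptgs2, chr1:150099781-150100030, plus strand: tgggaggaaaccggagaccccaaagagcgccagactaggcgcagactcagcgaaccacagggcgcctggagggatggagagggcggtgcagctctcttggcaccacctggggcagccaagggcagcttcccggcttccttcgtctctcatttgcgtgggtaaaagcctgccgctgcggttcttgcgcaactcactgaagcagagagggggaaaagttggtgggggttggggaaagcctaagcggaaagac
Acod1, chr14:103046762-103047011, plus strand: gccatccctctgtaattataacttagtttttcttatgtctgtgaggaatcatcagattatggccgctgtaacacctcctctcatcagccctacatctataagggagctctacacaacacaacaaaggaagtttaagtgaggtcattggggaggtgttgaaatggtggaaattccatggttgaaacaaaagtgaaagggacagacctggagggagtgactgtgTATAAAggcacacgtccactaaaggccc
Il1rn, chr2:24336610-24336859, plus strand: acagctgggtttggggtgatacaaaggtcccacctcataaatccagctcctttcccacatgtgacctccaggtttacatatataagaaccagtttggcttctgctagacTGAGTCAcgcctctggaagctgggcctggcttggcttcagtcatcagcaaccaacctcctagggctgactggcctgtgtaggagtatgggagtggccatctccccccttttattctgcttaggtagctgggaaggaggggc
Dusp6, chr10:99262981-99263230, plus strand: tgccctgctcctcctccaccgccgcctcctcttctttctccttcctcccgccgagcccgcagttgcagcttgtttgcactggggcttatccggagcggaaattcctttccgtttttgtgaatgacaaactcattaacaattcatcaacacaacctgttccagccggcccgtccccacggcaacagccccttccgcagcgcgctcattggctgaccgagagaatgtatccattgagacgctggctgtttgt
Fosl2, chr5:32136222-32136471, plus strand: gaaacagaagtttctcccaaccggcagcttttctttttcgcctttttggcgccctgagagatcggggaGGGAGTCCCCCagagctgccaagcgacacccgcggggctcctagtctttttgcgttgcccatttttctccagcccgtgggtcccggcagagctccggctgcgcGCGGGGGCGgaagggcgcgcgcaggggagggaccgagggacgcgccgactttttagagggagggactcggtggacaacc
Egr2, chr10:67537619-67537868, plus strand: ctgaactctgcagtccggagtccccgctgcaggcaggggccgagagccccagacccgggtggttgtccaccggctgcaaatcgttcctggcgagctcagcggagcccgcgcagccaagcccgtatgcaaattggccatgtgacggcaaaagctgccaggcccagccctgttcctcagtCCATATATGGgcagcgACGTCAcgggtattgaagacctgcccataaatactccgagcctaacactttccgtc
Zfp36, chr7:28379229-28379478, minus strand: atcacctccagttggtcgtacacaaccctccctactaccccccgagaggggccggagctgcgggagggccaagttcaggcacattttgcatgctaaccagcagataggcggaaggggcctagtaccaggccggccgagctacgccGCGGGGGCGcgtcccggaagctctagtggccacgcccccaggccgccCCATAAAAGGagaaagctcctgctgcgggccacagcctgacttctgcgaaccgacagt
Nfkbia, chr12:55492648-55492897, minus strand: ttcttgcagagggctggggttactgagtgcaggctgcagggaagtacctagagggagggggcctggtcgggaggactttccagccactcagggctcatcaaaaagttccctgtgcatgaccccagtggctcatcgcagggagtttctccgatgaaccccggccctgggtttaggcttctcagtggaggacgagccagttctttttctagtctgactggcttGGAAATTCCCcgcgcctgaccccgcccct

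The capitals mark a TATA box (TATAAA) in Acod1, an AP-1 site (TGANTCA) in Il1rn, overlapping kappa-B matches and an EGR site (GCGNGGGCG) in Fosl2, a CArG box followed by the CREB core ACGTCA in Egr2, an EGR site and a CArG box in Zfp36, and a kappa-B match in Nfkbia. The AP-1 match of Il1rn begins 141 bases before that start, 1 of 3 listed for the gene. The CArG box of Egr2 lies 72 bases before the start shown, 1 of 5, and that of Zfp36 58 bases before its only start. The kappa-B match of Nfkbia, which encodes the IkB-alpha inhibitor, lies 29 bases before its start. No searched motif occurs in these letters of Dusp6 or Ptgs2, although ACGTCA occurs 13 bases after the Ptgs2 start. Searches covered both strands, ACGTCA lies within the full CRE (TGACGTCA), and kappa-B and CArG were searched with degenerate letters.

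A kappa-B match stood in 14 of 36 member promoters (38.9%), against 9.55% of 27025 genes with a window. By class it was found in 5 of 8 NF-kB subunits and inhibitors, 6 of 15 immediate early genes and 3 of 13 inflammatory targets. EGR matches occurred in 7 of 36 members, 6 of them immediate early, against 6.27% of all genes. AP-1 matches occurred in 5 of 36 (8.97% of all genes), CArG boxes in 2 of 36 (1.81%), the full CRE in 1, Dusp1 (2.03%), and TATAAA in 11 of 36 (15.7%). The members were chosen for their known regulation, so these shares describe the choice, and a match is not a site of binding.

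Among the members, limma found 4 genes higher and 2 lower in Ing1-deficient fibroblasts at an adjusted p under 0.05. The inflammatory genes Ptgs2, Acod1 and Il1rn rose, as did Dusp6, a feedback phosphatase of ERK. The Fos-family gene Fosl2 fell. Dusp4, which encodes another MAP kinase phosphatase, counts as lower by its probe of highest mean, while its other probe was higher. These 6 are 15.4% of the 39 tested members, against 6.57% of all 19575 tested probes. By direction they are 10.3% against 4.94% higher and 5.13% against 1.63% lower. Since the members were chosen with earlier results of these data known, these shares describe the set, and an excess over all probes was not tested. Fosl2 and Acod1 entered the test through the genotype in which they are high. Among the 33 members with a good flag on all 6 arrays 4 passed (12.1%), against 6.93% of such probes. Of the 39 tested, 33 did not pass, and 14 were under 0.05 before adjustment, as were 26.2% of all tested probes. Groups did not overlap in 8 members that were higher (20.5%, against 20.0% of all probes) and in 4 that were lower (10.3%, against 11.2%), shares near the background. The number that passed changed with the arrays used: 12 without H3, 3 without C3, 1 without C4, and 0 without B1, H2 or I2. The count over all probes moved the same way, with 2726 called without H3 against 1286 with it. It was 379 without C3 and 52 without C4. Without B1, H2 or I2 it was 5, 24 and 17, so few that the zeros say little about the members. With B1, H2 or I2 left out, limma gave 12, 10 and 11 of the 39 members under 0.05 before adjustment. Over all probes these fits gave 4114 of 19572, 3661 of 19575 and 3602 of 19575. With an array left out, Acod1 passed in 3 of 6 fits, Ptgs2 in 2, and Il1rn, Dusp6, Fosl2 and Dusp4 in 1 each, that without H3. The largest adjusted p of these 6 genes in such a fit was 0.176, for Dusp4 without I2.

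**Figure D1:**
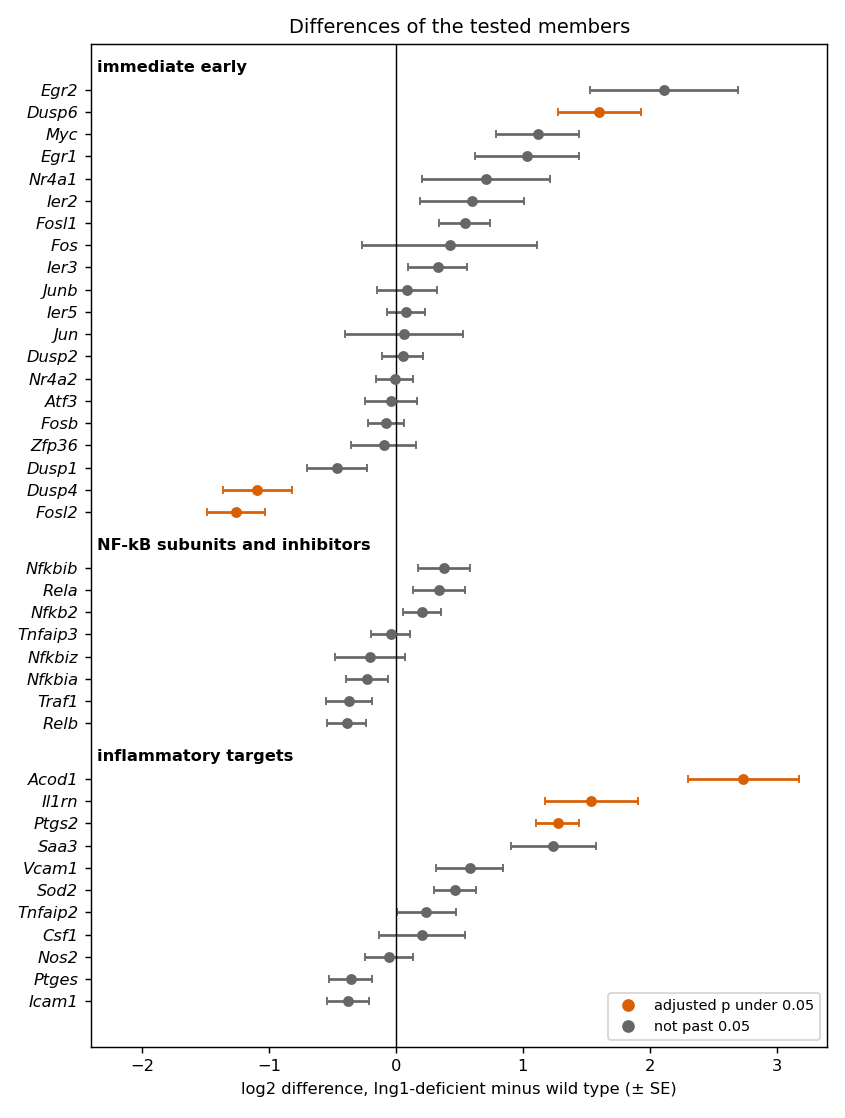
The log2 difference, Ing1-deficient minus wild type, is plotted for each of the 39 tested members by class, with bars of 1 SE from the limma fit and coloured points for an adjusted p under 0.05. Acod1 has the largest difference (2.74), Fosl2 the lowest (-1.26), and the NF-kB subunits and inhibitors all lie between -0.39 and 0.38.

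The prostaglandin gene Ptgs2, which encodes the inducible cyclooxygenase, read 5.36, 4.56 and 6.30 in C4, C3 and B1, against 2.17, 2.09 and 2.40 in H2, H3 and I2. The groups were well apart, and H3 lay with the other wild-type arrays. Means were 5.41 ± 0.869 in deficient and 2.22 ± 0.164 in wild-type cultures (SD, n = 3 each), a rise of 2.42-fold (log2 difference 1.28 ± 0.17, SE, limma adjusted p = 0.0164). Ptgs2 passed in 11 of 13 other settings, more than any other member that changed. Ptges, the synthase that acts after it on the way to prostaglandin E, read 4.86, 6.09 and 4.78 in deficient against 7.01, 5.81 and 7.29 in wild-type cultures and did not pass (log2 -0.36 ± 0.17, adjusted p = 0.224).

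Acod1 makes itaconate, an antimicrobial and immunoregulatory metabolite, and is best known from activated macrophages. It read 2.95, 7.28 and 7.68 in C4, C3 and B1, against 0.646, 1.51 and 0.227 in H2, H3 and I2. Every deficient culture was above every wild-type culture, and in wild type only the H3 spot was above background. The difference was 2.74 ± 0.44 on the log2 scale (6.67-fold, limma adjusted p = 0.0216), with the I2 spot set to the floor of 0.57. Since only 1 wild-type spot was above background, the size depends on that floor: it was 2.13 with the floor doubled (adjusted p = 0.102) and 3.18 with a floor of 0.01 (adjusted p = 0.0567). The summed macrophage markers were also highest in C3 and B1 (184 and 100.1). Their sum in C4 (63.4) was below that in wild-type H2 (69.9), and H3, the highest wild-type array for Acod1, had 45.6. Bright probes weigh most in this sum, with Lyz2 at 80.8 in C3. The part of these markers in the Acod1 difference was not tested.

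Il1rn, the secreted antagonist of the interleukin-1 receptor, read 4.48, 6.29 and 5.73 in C4, C3 and B1, against 1.20, 3.67 and 1.50 in H2, H3 and I2. The groups did not overlap, and H3 stood nearest to the deficient cultures. The rise was 2.91-fold (log2 1.54 ± 0.37, limma adjusted p = 0.0436) and 2.02 ± 0.21 without H3. The agonists themselves were at the edge of detection: Il1a was above background on no array, and Il1b on 1 deficient and 1 wild-type array. Il1r1, the signalling receptor and no member, read 5.37, 6.95 and 6.72 in deficient against 1.38, 4.47 and 1.66 in wild-type cultures. It rose by 1.54 ± 0.38 on the log2 scale (adjusted p = 0.0478).

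For the acute-phase gene Saa3 the levels were 71.7, 146 and 91.8 in C4, C3 and B1, against 38.6, 66.1 and 28.5 in H2, H3 and I2. The groups did not overlap, but the difference missed the threshold (log2 1.24 ± 0.34, adjusted p = 0.0617). The mitochondrial superoxide dismutase gene Sod2 read 21.5, 24.0 and 21.1 against 15.4, 18.9 and 14.3 in wild type, likewise without overlap (0.46 ± 0.16, adjusted p = 0.115). Both passed without H3, at 1.57 ± 0.30 (limma adjusted p = 0.0149) and 0.58 ± 0.16 (adjusted p = 0.0495). Vcam1, an adhesion molecule for leukocytes, overlapped between groups (0.58 ± 0.26, adjusted p = 0.196) and gave 0.86 ± 0.21 without H3 (adjusted p = 0.0319). Without H3, 13.9% of all probes were called. Saa3, Sod2 and Vcam1 did not pass with any other array left out. Their adjusted p then ran from 0.0975 to 0.203, 0.175 to 0.347 and 0.225 to 0.490. Icam1, its counterpart for other integrins, read 12.5, 12.1 and 10.6 in deficient against 13.7, 17.7 and 14.5 in wild-type cultures, lower without overlap and not past the threshold (-0.38 ± 0.16, adjusted p = 0.186).

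Other inflammatory genes did not pass. Nos2, the inducible nitric oxide synthase, read 2.52, 3.94 and 3.30 in deficient and 3.11, 3.63 and 3.24 in wild-type cultures, which overlapped throughout (-0.05 ± 0.19). The growth factor of macrophages, Csf1, gave 0.20 ± 0.34, and Tnfaip2 0.24 ± 0.23. Tnf, too dim to test, read 0.436, 0.691 and 1.04 in C4, C3 and B1, against 0.466, 0.088 and 0.541 in H2, H3 and I2, with a good flag on 2 deficient arrays and 1 wild-type array. Csf2 was above background on no array. In all, 3 of the 11 tested inflammatory targets were higher (4.94% of all probes), 0 lower and 8 not called, with 6 under 0.05 before adjustment (26.2% of all probes).

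**Figure D2:**
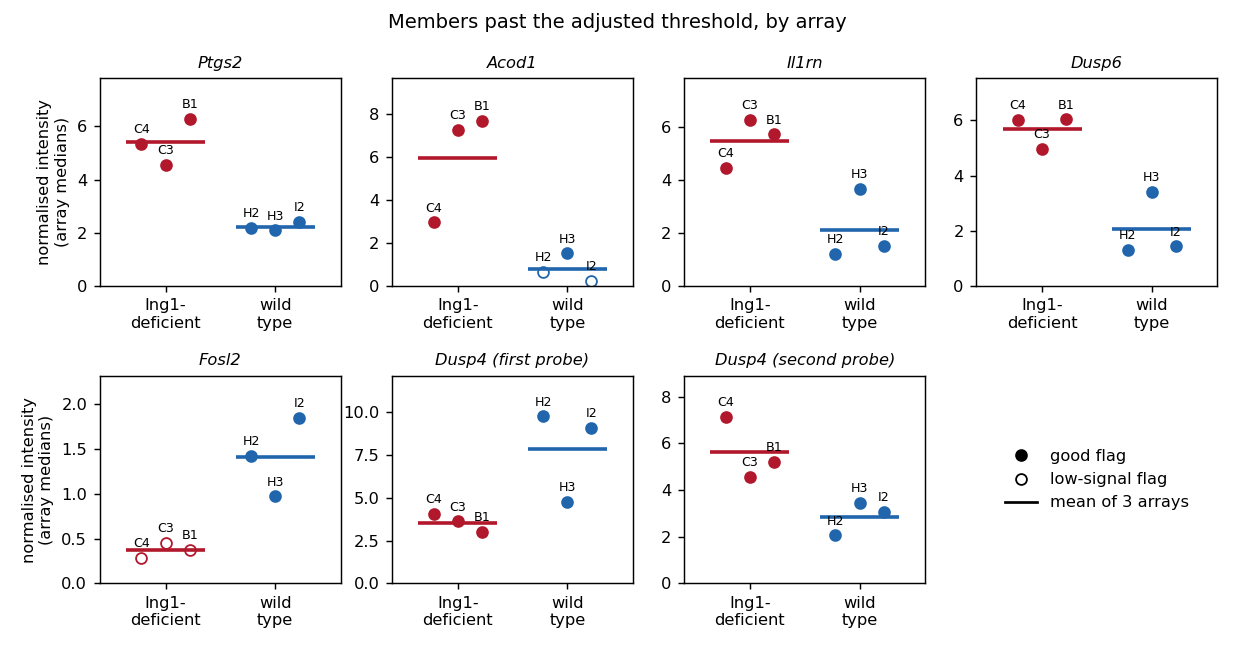
Normalised intensity in array medians is plotted for each array of the members past the adjusted threshold, with the 3 Ing1-deficient arrays left of the 3 wild-type arrays in each panel, lines at the group means and open circles for spots flagged low. In Ptgs2 the 3 wild-type arrays lie together, in Il1rn and Dusp6 H3 lies nearest to the deficient arrays, and the probes of Dusp4 differ in direction.

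Dusp6 encodes a cytoplasmic phosphatase that inactivates ERK and is itself induced by ERK. It read 6.02, 4.96 and 6.03 in C4, C3 and B1, against 1.31, 3.42 and 1.43 in H2, H3 and I2. The groups did not overlap, and H3 again stood nearest to the deficient cultures. The rise was 3.04-fold (log2 1.60 ± 0.33, limma adjusted p = 0.0324) and 2.04 ± 0.17 on the log2 scale without H3.

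Dusp4 encodes a nuclear MAP kinase phosphatase, and its probes gave opposite results. The probe that the platform annotates with a RefSeq mRNA read 4.03, 3.62 and 2.99 in deficient against 9.74, 4.77 and 9.07 in wild-type cultures (log2 -1.09 ± 0.27, adjusted p = 0.0472). The probe annotated with an expressed sequence tag read 7.15, 4.56 and 5.20 against 2.06, 3.45 and 3.06 in wild type (0.99 ± 0.24, adjusted p = 0.0453). Neither probe overlapped between groups, and their mean was -0.05, so no direction is given for the gene. Where either probe lies on the gene is not known here. The first gave -1.42 ± 0.18 without H3. Of the other feedback genes, Dusp1 read 8.80, 5.34 and 6.42 in deficient against 10.9, 10.3 and 7.04 in wild-type cultures (-0.46 ± 0.24, adjusted p = 0.250). Zfp36, which encodes the mRNA-destabilising protein tristetraprolin, gave -0.10 ± 0.26, and Dusp2 0.05 ± 0.16.

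Among the Fos and Jun genes, which encode the subunits of AP-1, only Fosl2 passed. Its spots read 0.288, 0.456 and 0.372 in C4, C3 and B1, none well above background, against 1.42, 0.97 and 1.85 in H2, H3 and I2. With all 3 deficient spots set to the floor of 0.57, Fosl2 was at least 2.40-fold lower in deficient cells (log2 -1.26 ± 0.23, adjusted p = 0.0264). The log2 difference was -1.51 ± 0.18 without H3, and -0.34 with the floor doubled, where it no longer passed (adjusted p = 0.368). The other Fra gene, Fosl1, read 1.27, 1.43 and 0.90 in deficient against 0.702, 0.85 and 0.885 in wild-type cultures. Its groups did not overlap, with B1 just above I2, and the difference did not pass (0.54 ± 0.20, limma adjusted p = 0.133). The C3 spot of Fosl1 had no good flag, and its difference was 0.16 with the floor doubled.

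Fos itself varied more within a genotype than between genotypes, at 21.0, 6.22 and 4.42 in C4, C3 and B1 and 7.98, 13.2 and 2.26 in H2, H3 and I2 (0.43 ± 0.69, adjusted p = 0.741). Jun did so too, at 29.1, 13.7 and 17.1 in deficient and 21.5, 33.2 and 8.33 in wild-type cultures (0.07 ± 0.47). In both genes the lowest array was the wild-type I2. Junb gave 0.09 ± 0.24, Fosb -0.07 ± 0.14 and the stress-induced Atf3 -0.04 ± 0.20.

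Egr2, a zinc-finger factor of serum-stimulated cells, had the largest difference of the immediate early class, 4.32-fold, without passing. It read 7.95, 1.78 and 5.38 in C4, C3 and B1, against 0.792, 2.08 and 0.364 in H2, H3 and I2. The groups overlapped, because C3 lay below H3 (log2 2.11 ± 0.58, adjusted p = 0.0641). Egr1 showed the same order of arrays within wild type, at 10.6, 6.08 and 8.27 in deficient against 4.29, 7.18 and 2.01 in wild-type cultures (1.03 ± 0.41, adjusted p = 0.150). Myc read 7.10, 4.74 and 6.43 against 2.70, 4.57 and 1.71 in wild type, with H3 just below C3 (1.12 ± 0.33, adjusted p = 0.0723).

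Without H3, these 3 genes passed, with Egr2 at 2.66 ± 0.54 (adjusted p = 0.0194), Egr1 at 1.46 ± 0.34 (adjusted p = 0.0304) and Myc at 1.48 ± 0.25 (adjusted p = 0.0109). H3 was looked at because it was the highest wild-type array in these genes, and leaving it out widens such differences. Egr1 and Myc passed with none of the other 5 arrays left out, with adjusted p of 0.151 to 0.376 for Egr1 and 0.0869 to 0.211 for Myc. Egr2 passed also without C3 (2.74 ± 0.48, adjusted p = 0.0388) and with no other array left out. Of the remaining early genes, the orphan nuclear receptor gene Nr4a1 read 15.9, 4.88 and 7.30 in deficient and 5.59, 9.01 and 2.56 in wild-type cultures (0.71 ± 0.50, adjusted p = 0.404). Its relative Nr4a2 gave -0.01 ± 0.14. Ier2 read 24.6, 13.5 and 17.2 against 13.9, 20.1 and 5.89 in wild type (0.60 ± 0.41, adjusted p = 0.389), while Ier3, a survival gene, gave 0.33 ± 0.23 and Ier5 0.08 ± 0.15. In the class as a whole, 1 gene was higher (4.94% of all probes), 2 lower by the probe of highest mean (1.63%) and 17 of 20 not called. Under 0.05 before adjustment were 7 (26.2% of all probes).

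**Figure D3:**
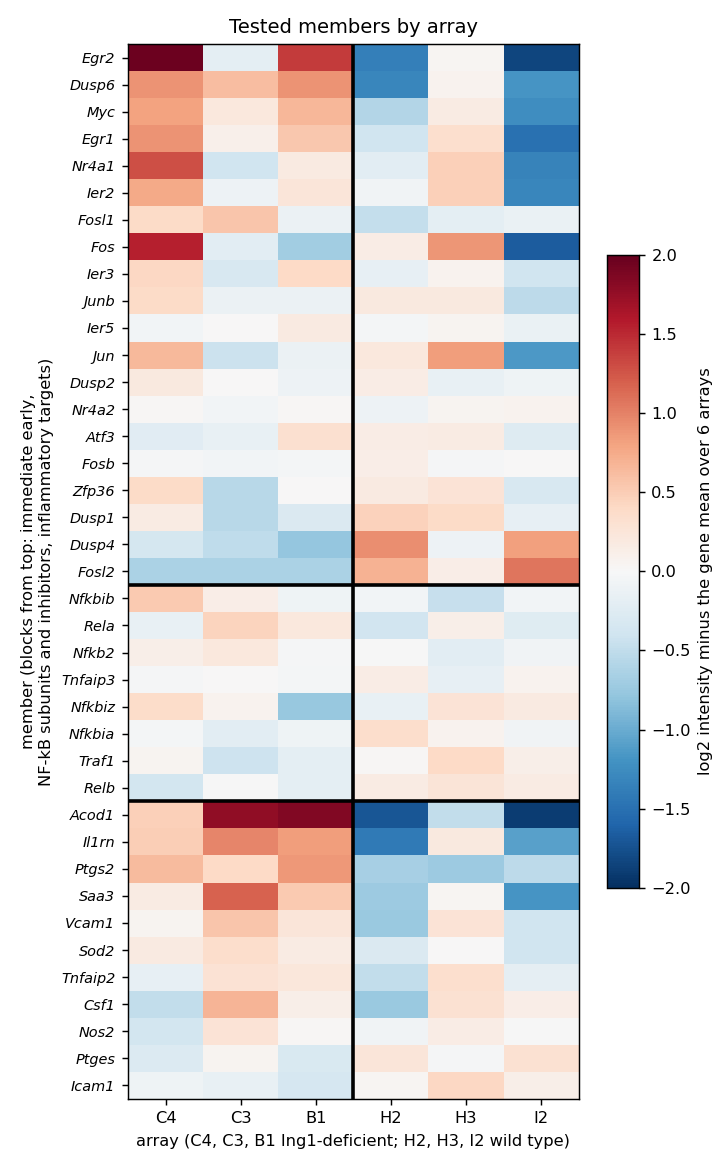
Each row is a tested member and each column an array, the 3 Ing1-deficient arrays left of the 3 wild-type arrays, coloured by log2 intensity minus the mean of the gene over the 6 arrays. Fos, Jun, Egr1, Nr4a1 and Ier2 are high in C4 and H3 and low in I2, Acod1 and Il1rn are high in all 3 deficient arrays, and the NF-kB block in the middle is pale.

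The NF-kB subunits and their inhibitors all lay between -0.39 and 0.38 on the log2 scale. Limma called 0 of 8 (6.57% of all probes), with 1 under 0.05 before adjustment (26.2% of all probes). The methods' t-test gave 1 before adjustment (3926 of 19572 probes). After adjustment it gave 0, but it called only 7 of 19572 probes, so this 0 says little about the class. Normexp and quantile processing called 0 (2.94% and 3.77% of all probes). Array weights called 4 of 8 (41.7% of all probes), and the leading letter of the culture name as a random block 6 of 8 (65.9%). Rela, the main transactivating subunit, read 2.54, 3.82 and 3.26 in C4, C3 and B1, against 2.17, 3.06 and 2.36 in H2, H3 and I2 (0.34 ± 0.20, adjusted p = 0.329). Nfkb2, the precursor of the non-canonical pathway, read 3.53, 3.76 and 3.20 against 3.22, 2.79 and 3.09 in wild type (0.20 ± 0.15, adjusted p = 0.427). Its partner Relb was the member under 0.05 before adjustment, at 2.24, 2.87 and 2.52 in deficient against 3.24, 3.46 and 3.23 in wild-type cultures. The groups of Relb did not overlap (-0.39 ± 0.16, adjusted p = 0.156). Rel was above background on I2 alone.

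Nfkbia is an NF-kB target as well as an inhibitor. It read 53.8, 47.8 and 52.2 in C4, C3 and B1, against 70.5, 58.2 and 52.5 in H2, H3 and I2, so that B1, C4 and I2 were within a few units of each other (-0.23 ± 0.16, adjusted p = 0.419). Nfkbib, another IkB, read 11.3, 8.59 and 7.37 in deficient against 7.59, 5.67 and 7.57 in wild-type cultures (0.38 ± 0.21, adjusted p = 0.277). The adaptor gene Traf1 read 1.75, 1.26 and 1.47 against 1.72, 2.23 and 1.83 in wild type (-0.37 ± 0.18, adjusted p = 0.233). Tnfaip3, the ubiquitin-editing inhibitor known as an early target of the pathway, had nearly equal means, 3.94 ± 0.0637 in deficient and 4.07 ± 0.455 in wild-type cultures (SD, n = 3 each, log2 -0.04 ± 0.15), and the nuclear IkB gene Nfkbiz gave -0.20 ± 0.28.

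Set side by side, the inflammatory targets had a median log2 difference of 0.46 over 11 tested genes, with 8 above 0. The immediate early genes had 0.08 over 20, with 13 above 0, and the NF-kB subunits and inhibitors -0.12 over 8, with 3 above 0. Over all tested probes the median was 0.02 and 51.9% were above 0. The 12 fibroblast markers had a median of 0.41, close to that of the inflammatory targets. Thy1 (0.89 ± 0.22) and Lum (0.84 ± 0.19) were called higher, as were 4.94% of all tested probes. Without H3 the inflammatory, immediate early and NF-kB medians were 0.58, 0.33 and -0.12. The immediate early median ran from 0.022 without C4 to 0.33 without H3 and was -0.011 after quantile normalization, so no direction is given for it. The inflammatory median was 0.24 with no filter on flags. The difference between the classes was not tested.

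The arrays that stood out differed between the classes. For immediate early genes the median deviation from the gene mean (log2) was 0.39, -0.14 and 0.02 in C4, C3 and B1, against 0.04, 0.15 and -0.36 in H2, H3 and I2. C4 was the highest array in 10 of the 20 (28.5% of all probes) and I2 the lowest in 11 (10.6% of all probes). The 12 tested transcription factors of the class showed it most, at 0.52 in C4 and -0.84 in I2. For inflammatory targets it was 0.06, 0.41 and 0.23 in C4, C3 and B1, against -0.67, 0.16 and -0.40 in H2, H3 and I2. C3 was the highest array in 6 of the 11 (14.6% of all probes). The macrophage markers gave 0.02, 1.41 and 0.49 in the same deficient cultures, against 0.01, -0.61 and -1.04 in wild type. They share with the inflammatory targets their highest array, C3, but put H2 above H3 and I2, where the inflammatory targets put H3 highest. Their part in the levels of Il1rn and Saa3 was not tested either.

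**Figure D4:**
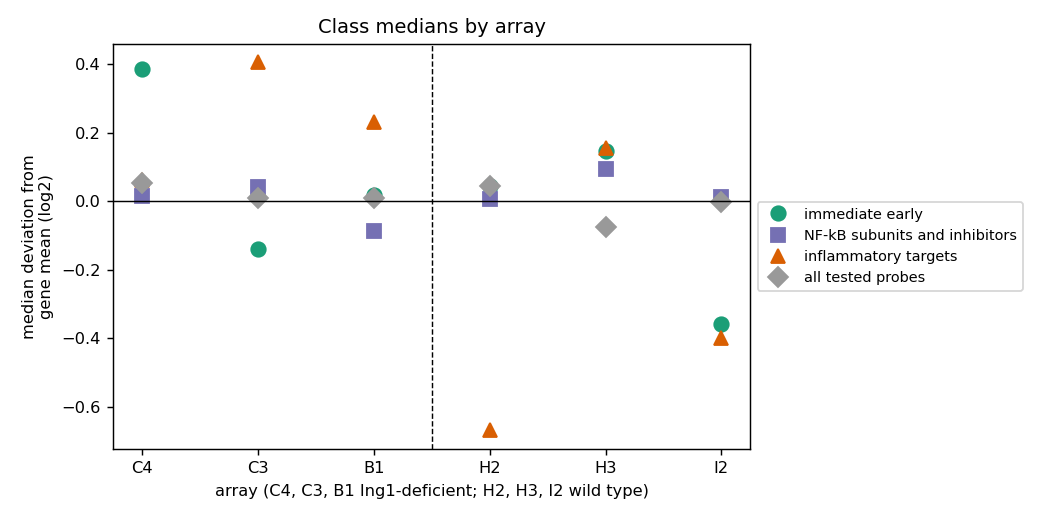
The median over the tested genes of a class of log2 intensity minus the gene mean is plotted for each array, the 3 Ing1-deficient arrays left of the dashed line and the 3 wild-type arrays right of it. Immediate early genes are highest in C4 (0.39) and lowest in I2 (-0.36), inflammatory targets are highest in C3 (0.41) and lowest in H2 (-0.67), and the NF-kB subunits and inhibitors stay within 0.1 of 0.

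Genes that act before and beside the members were counted from named lists, also chosen with earlier results of these data known. Of 18 tested genes of upstream NF-kB signalling, 3 rose and 0 fell (4.94% and 1.63% of all probes): Il1r1, Irak2, a kinase that binds the activated interleukin-1 receptor (0.85 ± 0.16, adjusted p = 0.0282) and Tlr2, a receptor for lipopeptides (0.95 ± 0.23, adjusted p = 0.0443). Irak2 read 3.80, 4.11 and 4.44 in C4, C3 and B1, against 2.00, 2.47 and 2.41 in H2, H3 and I2, with no overlap. Tlr2 read 10.1, 9.52 and 8.34 against 4.45, 6.79 and 3.64 in wild type, also without overlap. The median of the list was 0.17.

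Of 18 other NF-kB targets limma called 0 (6.57% of all probes). Under 0.05 before adjustment were 8 (26.2% of all probes), 6 of them lower (9.21% of all probes). The methods' t-test gave 3 before adjustment (3926 of 19572 probes). After adjustment it gave 0, but it called only 7 of 19572 probes, so this 0 says little about the list. Among the 13 targets flagged good in every culture limma called 1 (6.93% of such probes). Trended and robust eBayes, normexp and quantile processing called 0 (7.51%, 2.94% and 3.77% of all probes). Limma without H3 called 4 (13.9%), array weights 13 (41.7%) and the letter block 12 (65.9%). The lowest p belonged to the kinase gene Pim1, at 3.45, 4.27 and 4.59 in deficient against 20.5, 5.72 and 12.7 in wild-type cultures (-1.49 ± 0.39, adjusted p = 0.0558), and to Gch1, of tetrahydrobiopterin synthesis (-0.68 ± 0.20, adjusted p = 0.0766). The list median was -0.15, on the other side of 0 from that of the inflammatory members.

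Of 22 tested genes of growth-factor, MAP kinase and SRF signalling limma called 0 (6.57% of all probes), and the median was 0.28. Under 0.05 before adjustment were 9 (26.2% of all probes). The methods' t-test gave 7 before adjustment (3926 of 19572 probes). After adjustment it gave 0, where 7 of 19572 probes were called, so this 0 says little about the list. Among the 17 genes flagged good in every culture limma called 1 (6.93% of such probes). Trended and robust eBayes called 2 of 22 (7.51% of all probes), normexp and quantile processing 0 (2.94% and 3.77%). Limma without H3 called 4 (13.9%), array weights 12 (41.7%) and the letter block 16 (65.9%). Spry1, a feedback inhibitor of receptor tyrosine kinases, read 34.0, 44.8 and 43.7 in C4, C3 and B1, against 15.3, 31.1 and 17.5 in H2, H3 and I2 (0.999 ± 0.26, adjusted p = 0.0565). Mrtfb, a coactivator of SRF, gave 0.59 ± 0.16 (adjusted p = 0.0593). Among 19 other immediate early genes 1 fell (1.63% of all probes), and the list median was 0.10. The gene that fell was the stress gene Gadd45b, at 9.76, 13.8 and 11.5 in deficient against 70.9, 20.8 and 41.9 in wild-type cultures (-1.77 ± 0.38, limma adjusted p = 0.0336). In Gadd45b and Pim1, as in Dusp4, H3 was the wild-type culture nearest to the deficient ones.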

How the data were processed

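Total RNA was read on 1-colour CodeLink arrays with 36227 spots, 34967 of them transcript probes and 1260 controls, which were left out. Per the file headers, the authors scanned with a GenePix scanner and quantified with CodeLink software. As worked out from the values, the deposited intensity is background-subtracted (spot mean less local median background) and scaled to the array's median transcript probe. It is linear, and the deposited series table holds the same intensity. In the deposited scanner tables the other columns, written with decimal commas, give spot means, background and flags. A log2 step is stated in the labels, but the deposited values are not on a log2 scale. Genome build is not given in the sources used here. From 105 to 177 probes per array were masked. No 2 arrays shared more than 0.0315% of values.

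Log2 was taken with values under 0.57 set to that floor, the median over arrays of the 1st percentile of good-flag probes, which understates differences of dim probes. A probe was tested if every array of 1 genotype or both gave it a good flag (19575 probes), with limma 3.58.1 (lmFit, eBayes, two-sided) in R 4.3.3, Benjamini-Hochberg over all of them and a threshold of 0.05. With 3 arrays a genotype, their number limits the precision. A gene is its probe of highest mean. Symbols came from 21615 probes with 1 annotated symbol (681 had several and 12671 none), of which 21487 were matched to RefSeq names by gene ID. Where no deficient spot was above background, the fold is a bound against the floor. Differences are deficient minus wild type with their SE.

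Members and gene lists were chosen with earlier results of these data known. Values per array are given for members past the threshold, members whose groups do not overlap, and the 3 highest and 3 lowest of each class; other genes of the lists are named when past the threshold, or with the lowest p where none was. Fos, Jun, Egr1, Nr4a1, Ier2 and Tnf were given per array after their values were seen. The methods' t-test is the Student test of the labels, with a ratio over 2 or under 0.5. Alternatives were normexp (offset 50) and quantile processing, other floors and filters, the series table, trended and robust eBayes, array weights, the leading letter of the culture name as a random block (statmod 1.5.0), the mean of all probes and each array left out; a count without Dusp4 was added after seeing the data.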

Additional observations from a re-analysis of the deposited data

How the results depend on the processing

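The count of members past the adjusted threshold, 6, was 3 with normexp (7.69%, against 2.94% of all probes). With a floor of 1.14 it was 1 (2.56%, against 0.976%) and with a floor of 0.01 it was 2 (5.13%, against 1.40%). It was 0 with no filter on flags, where 20 of 34862 probes were called. In the methods' t-test after adjustment it was 0, where 7 of 19572 were called. Those 2 zeros say little about the members. Before adjustment, limma without the filter gave 10 of 46 members under 0.05 and the methods' t-test 9 of 39. Over all probes the counts were 4644 of 34862 and 3926 of 19572. The count was 23 (59.0%) with array weights, where 41.7% of all probes were called. The weights ran from 0.335 in C4 to 1.94 in B1 and 13.0 in I2, so I2 dominated the wild-type mean. It was 25 (64.1%) with the leading letter as a random block (estimated correlation -0.89), where 65.9% of all probes were called. No letter holds both genotypes. The cause of both larger counts was not tested. With each array left out it ran from 0 to 12, highest without H3, and those fits also have 1 array fewer. It was 4 with quantile processing (3.77% of all probes), where all probes called were 60.7% higher against 75.2%. With a good flag on all arrays it was also 4 (6.93%). The count was 5 with the mean of all probes (6.22%) or without Dusp4. It was 6 with the series table (6.57%), trended and robust eBayes (7.51%), or the methods' unadjusted selection. No called member changed sign in any of these. The median of the immediate early genes was 0.40 with array weights, and from 0.022 to 0.33 with an array left out. The median of NF-kB subunits and inhibitors, -0.12, was -0.059 with normexp, -0.0039 with the higher floor, -0.020 with no filter and 0.048 with the letter block, and ran from -0.15 to 0.047 with an array left out. Each slide holds 1 array, so the slide as a block gave no value. No paired analysis was possible because the genotypes share only the number 3 in their culture names. Fosl2, Acod1 and Egr2 have spots near background, where the floor decides the size, and the difference of Fosl1 was 0.16 with the higher floor.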
